A study of Mus musculus with 12 samples.

Results

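The genes described here are 10 long noncoding RNA genes with known roles or sites of expression in the brain: Meg3, Rian, Mirg, Miat, Malat1, Neat1, Sox2ot, Rmst, Dlx6os1 and Pantr1. They were taken by name, matched from Ensembl gene identifiers to symbols, and each was found in the 50600 identifiers counted in every library. The symbol Dlx6os1 also belongs to another identifier, with 0 to 22 counts per library, which is not part of the values given for Dlx6os1. All 10 passed the filter on low counts that left 17847 genes for testing. The libraries hold poly(A)+ RNA from the cerebral cortex of mice of the C57BL/6 strain, taken before birth on embryonic day 11, 13 or 17 (E11, E13, E17) and after birth on postnatal day 1 (P1). Every age has 3 libraries with the letters A, B and C, and every library is the cortex of 1 animal from a litter of its own. Each library was made from 1 µg of total RNA by selection with oligo(dT) and a strand-specific kit (TruSeq Stranded mRNA), and was read as single reads of 75 bases. No animal carried a labelled allele or received a treatment, so age is the only difference between the groups that the labels name. The series title places the work in the study of zinc during cortex formation, and the age series shows how each RNA changes while the cortical wall passes from dividing precursors to neurons.

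Long noncoding RNAs are transcribed and usually spliced and polyadenylated like messenger RNAs but code for no known protein. Meg3, Rian and Mirg are read from the maternal chromosome of the imprinted Dlk1-Dio3 region, where they carry microRNAs and small nucleolar RNAs, while Dlk1, Rtl1 and Dio3 are read from the paternal one. Malat1 sits in nuclear speckles, Neat1 builds paraspeckles, and Miat forms a nuclear domain of its own in neurons. Sox2ot, Rmst, Dlx6os1 and Pantr1 lie beside genes of developmental transcription factors or act with them: Sox2ot contains Sox2 in an intron, RMST binds SOX2 in human neural progenitors, Dlx6os1 (Evf2) runs antisense to Dlx6 and guides Dlx proteins to their targets, and Pantr1 neighbours Pou3f3. Malat1 and the long form of Neat1 end without the usual poly(A) tail, so selection with oligo(dT) can understate both.

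The RefSeq promoter windows run from 250 bases before to 50 after an annotated start and are shown for RNAs read from 1 region and for the RNA that lies against Dlx6. Windows were found for 6 of the 10 genes, with a second start for Meg3 and for Dlx6os1; the 3 of the Dlk1-Dio3 region and the first one of Dlx6os1 are shown, in build GRCm38.p6 and 5′ to 3′. Motifs searched on both strands were the TATA box TATAAA, the CCAAT box, the full cAMP response element TGACGTCA, the homeodomain core TAATTA, the E-box CAGATG, the E-box CAGCTG, the Sox-type motif ACAAAG and the GC box GGGCGG, and capitals mark where one of them matched. The Mirg window lies inside the Mirg gene of GENCODE M21, which starts further upstream.
Meg3 start, chr12:109540746-109541045, plus strand: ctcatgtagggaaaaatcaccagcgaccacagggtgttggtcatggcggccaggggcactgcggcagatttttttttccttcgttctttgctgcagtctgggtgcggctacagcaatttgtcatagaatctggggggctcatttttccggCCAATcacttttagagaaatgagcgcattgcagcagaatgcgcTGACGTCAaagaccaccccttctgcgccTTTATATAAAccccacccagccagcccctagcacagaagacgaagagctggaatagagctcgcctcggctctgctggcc
Rian start, chr12:109603695-109603994, plus strand: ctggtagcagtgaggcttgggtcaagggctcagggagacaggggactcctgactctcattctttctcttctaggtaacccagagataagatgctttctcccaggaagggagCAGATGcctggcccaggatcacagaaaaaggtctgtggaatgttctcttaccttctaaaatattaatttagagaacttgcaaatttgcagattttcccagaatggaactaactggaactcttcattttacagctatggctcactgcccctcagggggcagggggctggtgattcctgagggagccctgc
Mirg start, chr12:109734731-109735030, plus strand: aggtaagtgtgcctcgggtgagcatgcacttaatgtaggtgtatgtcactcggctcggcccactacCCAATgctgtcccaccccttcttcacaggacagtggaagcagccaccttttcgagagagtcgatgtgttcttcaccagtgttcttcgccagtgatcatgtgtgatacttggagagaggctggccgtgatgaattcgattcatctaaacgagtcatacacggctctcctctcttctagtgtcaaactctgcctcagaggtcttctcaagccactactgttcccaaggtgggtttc
Dlx6os1 start, chr6:6869484-6869783, minus strand: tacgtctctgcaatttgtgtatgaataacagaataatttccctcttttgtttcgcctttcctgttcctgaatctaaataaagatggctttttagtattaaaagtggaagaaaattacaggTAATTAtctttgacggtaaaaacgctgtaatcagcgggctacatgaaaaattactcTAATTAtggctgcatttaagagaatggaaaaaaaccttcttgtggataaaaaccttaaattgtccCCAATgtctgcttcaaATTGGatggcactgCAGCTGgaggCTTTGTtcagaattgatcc

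The Meg3 window held TGACGTCA, a CCAAT box and a pair of overlapping TATAAA matches, one on each strand. TGACGTCA occurs in 1.79% of the 32851 promoter windows of the same length, TATAAA in 13.6% and CCAAT in 37.4%. The TGACGTCA match began 57 bases before the start and the TATAAA match on the plus strand 25 bases before it. The Meg3 window had 13 CpG dinucleotides, the Rian window 0 and the Mirg window 10, against a median of 7 over all windows. Rian and Mirg held none of the Meg3 matches apart from a CCAAT in Mirg, and Rian held a single CAGATG, found in 17.2% of windows. The first Dlx6os1 window held TAATTA at 130 and at 74 bases before the start, a motif in 5.29% of windows, and also the CCAAT box on both strands, the E-box CAGCTG and the motif ACAAAG, found in 37.4%, 16.3% and 18.7% of windows. These are matches of letters in 1 window each and do not show binding.

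The microRNAs that lie inside these genes in RefSeq numbered 40 mature forms: 3 in Meg3, 6 in Rian, 26 in Mirg, 1 in Sox2ot and 4 in Rmst. Their processed forms were not measured here, since the libraries were made from poly(A)+ RNA. The mature forms in Meg3 and Rmst are shown because these host genes had the largest fold changes between P1 and E11, and 2 forms in Mirg because they share a seed. Bases 2 to 8, the seed that pairs with targets, are in capitals.
mmu-miR-770-5p: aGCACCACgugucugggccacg
mmu-miR-770-3p: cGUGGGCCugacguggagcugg
mmu-miR-1906: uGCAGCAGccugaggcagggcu
mmu-miR-135a-5p: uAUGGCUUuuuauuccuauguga
mmu-miR-135a-2-3p: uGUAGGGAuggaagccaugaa
mmu-miR-1251-5p: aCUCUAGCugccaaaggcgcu
mmu-miR-1251-3p: cGCUUUGCucagccaguguag
mmu-miR-453: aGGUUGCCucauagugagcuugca
mmu-miR-496a-5p: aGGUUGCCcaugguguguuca

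No seed was shared between the Meg3 and the Rmst forms. The last 2 forms listed, both in introns of Mirg, share the seed GGUUGCC and were the only forms of 1 host with a seed in common. The miR-770 and miR-1906 forms lie in exons of Meg3, and the 4 forms in Rmst lie in its introns.

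Total counts were 28173745 to 45858712 per library, of which the 10 genes together took 0.109 to 0.269%. Levels are given as CPM, counts per 1e+06 counts of a library, with the total scaled by its TMM factor, and changes as log2 fold changes of the later over the earlier age with the standard error (SE) of the edgeR fit. A gene is said to have risen or fallen where edgeR's quasi-likelihood test, with Benjamini-Hochberg adjustment over all 17847 genes, gave an adjusted p under 0.05. Comparisons of ages share libraries, so they are not independent of each other. The cortex markers were present at every age: 10 of 10 neuron markers and 9 of 9 radial glia markers averaged over 1 CPM. Markers of other tissue moved with age as well. The summed level of 7 meningeal fibroblast markers was 1182 to 1438 CPM at E11, 797.7 to 1092 at E13, 16.1 to 19.3 at E17 and 15.0 to 55.7 at P1. That of 10 erythroid markers was 5742 to 16480 CPM at E11 and 45.6 to 84.0 at P1. E11 C and E13 C stood apart from the other libraries of their ages in the sum of GABAergic markers, and E17 A in that of striatal markers. Results that rest on them are also given without them. In bulk RNA, fewer cells of a type and less RNA per cell cannot be told apart.

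Each of the 10 RNAs changed between ages. In the test over all 4 ages together 10 of 10 passed, where 90.2% of all tested genes did. Between E13 and E11, 4 of the 10 changed, against 40.1% of all genes. Of these 2 rose (22.6% of all genes) and 2 fell (17.5%), and the libraries of the ages did not overlap for 4 (51.8%). Between E17 and E13 all 10 changed, against 73.8% of all genes. Here 6 rose (36.8% of all genes) and 4 fell (37%), and none of the 10 overlapped, as for 76.1% of all genes. Between P1 and E17, 5 changed, against 49.9%. At this step 4 rose (24% of all genes) and 1 fell (25.9%), and 7 did not overlap (62.4%). The shares called at the first and last steps were near the background. The count of 10 at the step to E17 was 7 without E13 B and 7 with no filter on low counts, where Malat1, Dlx6os1 and Pantr1 were lost, so it is not read as above the background.

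Over longer intervals, at P1 against E11, 9 changed where 82.3% of all genes did, 6 of them upward (40.5%) and 3 downward (41.8%), and 9 did not overlap (84.5%). At E17 against E11, 9 changed (79.6% of all genes), with 6 up (40%) and 3 down (39.7%), and 9 without overlap (82.1%). At P1 against E13, 6 changed (79.2%), with 4 up (38.5%) and 2 down (40.7%), and 7 without overlap (81.1%). The count of 6 changed at P1 against E13 was 5 to 7 over the alternatives, so it is not read as below the background. The median absolute log2 fold change of the 10 was 0.51 at E13 over E11, against 0.26 for all genes. It was 1.44 at E17 over E13, against 0.66 for all genes, and 0.62 at P1 over E17, against 0.32. Over the longer intervals it was 1.20 at P1 over E11 (0.97 for all genes), 1.36 at E17 over E11 (0.84) and 0.89 at P1 over E13 (0.82).

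**Figure D1:**
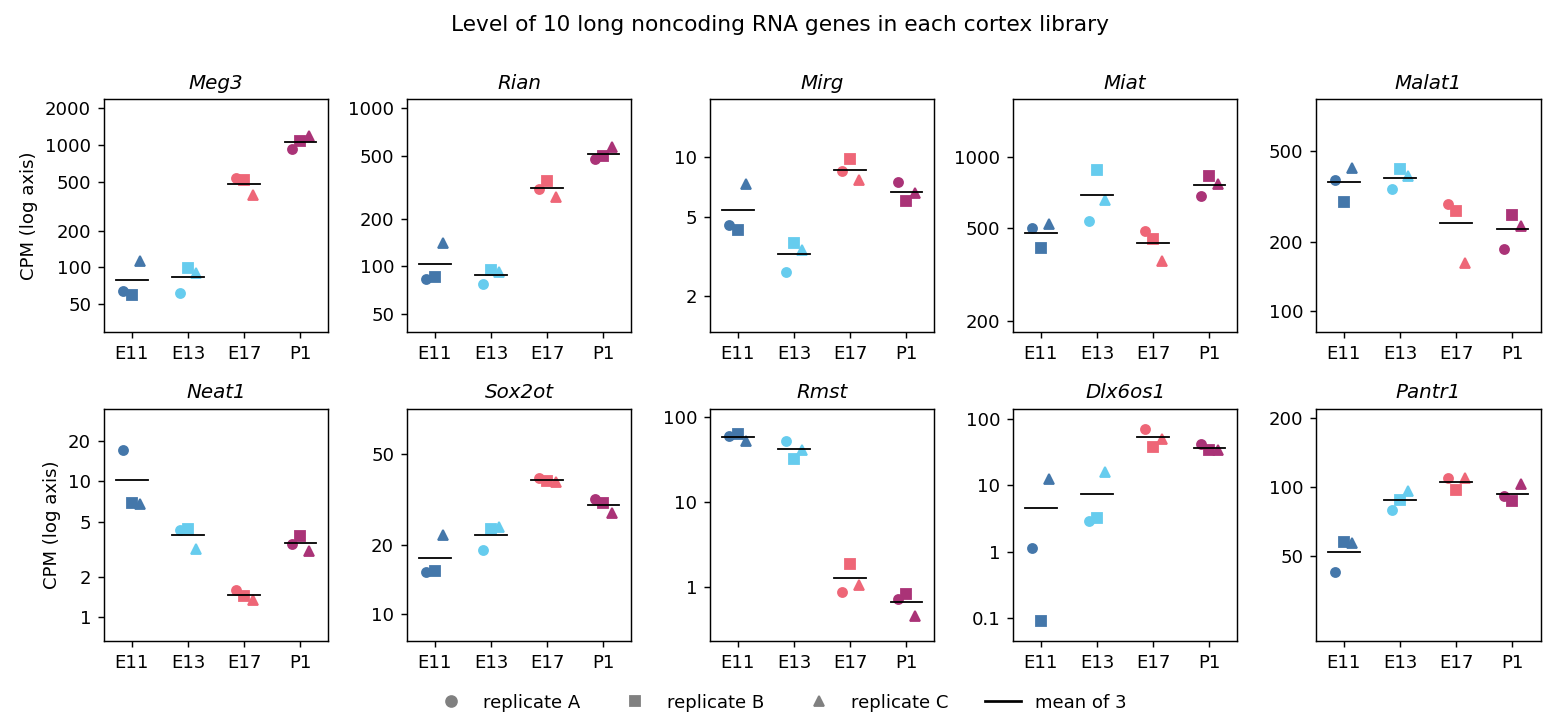
Level of each long noncoding RNA in the 12 libraries, in CPM on a log axis, by age; symbols mark replicates A, B and C and the bar the mean of 3. Meg3 and Rian step up at E17 and again at P1, Rmst steps down at E17, and Neat1 is lowest at E17.

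Meg3, an RNA reported in mouse cells to act with Polycomb repressive complex 2, rose at both later steps (chr12:109541001-109571726, plus strand, GRCm38, GENCODE M21; ENSMUSG00000021268). Its level was 64.1, 59.5 and 112.3 CPM at E11, in the order A, B, C that is kept from here on, and 62.0, 99.7 and 90.0 CPM at E13. It was 534.6, 522.0 and 391.9 CPM at E17 and 919.9, 1072 and 1176 CPM at P1. The E11 and E13 libraries overlapped, while every E17 library lay above every E13 library and every P1 library above every E17 library. Meg3 averaged 482.9 ± 79.0 CPM at E17 and 83.9 ± 19.6 CPM at E13 (SD, n = 3 each). The log2 fold change was 2.53 ± 0.27 (SE) with an adjusted p = 8.4e-06. At P1 it averaged 1056 ± 129 CPM (SD, n = 3), a further log2 fold change of 1.13 ± 0.26 over E17 (adjusted p = 0.00422). In all, Meg3 stood 13.4-fold higher at P1 than at E11. Its change of 0.09 ± 0.26 at E13 over E11 did not pass (adjusted p = 0.808).

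Rian, further along the same strand and the host of a cluster of C/D box small nucleolar RNAs, followed Meg3 at a lower fold (chr12:109603940-109661716; ENSMUSG00000097451). It stood at 82.5, 85.2 and 139.5 CPM at E11 and at 76.4, 95.0 and 91.5 CPM at E13. At E17 the libraries held 308.8, 348.5 and 274.9 CPM, and at P1 477.3, 496.4 and 568.5 CPM. Again the step to E17 and the step to P1 left no overlap, and the E11 and E13 libraries overlapped. Rian rose by 1.83 ± 0.19 on the log2 scale at E17 over E13 (adjusted p = 5.02e-06) and by 0.73 ± 0.18 at P1 over E17 (adjusted p = 0.00724). P1 was 5.02-fold above E11.

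Mirg, the host of the region's largest microRNA cluster, took another course (chr12:109729764-109749460; ENSMUSG00000097391). It was low throughout, at 100 to 327 counts per library: 4.55, 4.30 and 7.33 CPM at E11, 2.65, 3.71 and 3.43 CPM at E13, 8.45, 9.70 and 7.67 CPM at E17, and 7.46, 6.01 and 6.61 CPM at P1. The E13 libraries were the lowest of the 4 ages and the E17 libraries the highest, with no overlap between E17 and any other age. Mirg fell by 0.73 ± 0.20 on the log2 scale at E13 against E11 (adjusted p = 0.0121), a call that was lost without E11 C (-0.45, adjusted p = 0.0595). It rose by 1.40 ± 0.20 at E17 over E13 (adjusted p = 2.45e-05). At P1 over E17 its change was -0.36 ± 0.19 (adjusted p = 0.133), and it passed as a fall without E11 C (-0.36, adjusted p = 0.0478) and in a fit of those ages alone (-0.36, adjusted p = 0.0337). Whether the 3 RNAs differed in that step was not tested.

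Library E11 C was the highest of its age for all 3 RNAs of the region. It held 112.3 CPM of Meg3, 139.5 CPM of Rian and 7.33 CPM of Mirg, and it also held 30.4 CPM of Dlk1, where E11 A and E11 B had 14.5 and 11.8 CPM. Without it, the log2 fold change of Rian at E13 over E11 was 0.06 in place of -0.22, neither past the threshold.

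The other genes of the region were listed as Dlk1, Rtl1, Dio3 and the flanking Begain, of which Rtl1 was too low to test. Dlk1, a Notch-related membrane protein made from the paternal chromosome, averaged 18.9, 10.7, 6.02 and 1.31 CPM over the 4 ages from E11 to P1. It fell by 2.21 ± 0.36 on the log2 scale at P1 against E17 (adjusted p = 0.000442), a call kept in all 22 alternatives. Its falls at E13 against E11 (-0.81, adjusted p = 0.0485) and at E17 against E13 (-0.83, adjusted p = 0.0301) were lost in 15 and in 6 of the 22, and the first was -0.29 without E11 C (adjusted p = 0.215). Begain, a postsynaptic scaffold-associated protein, averaged 8.09, 13.5, 41.5 and 93.5 CPM and rose at each step, by 0.74, 1.61 and 1.17 on the log2 scale (adjusted p = 7.38e-05, 2.55e-09 and 1.71e-06). Dio3, which inactivates thyroid hormone, averaged 1.58 CPM at E17 and 0.328 CPM at E13, a log2 fold change of 2.30 ± 0.65 (adjusted p = 0.0066; 1.69 without E17 C). It averaged 0.23 CPM at P1 and fell, by 2.82 on the log2 scale (adjusted p = 0.0043; -2.21 without E17 C). The E17 libraries of Dio3 ranged from 0.265 to 2.63 CPM. They overlapped those of E13 (0.0842 to 0.529 CPM) and of P1 (0.191 to 0.266 CPM). At P1 the maternal RNAs Meg3 and Rian were thus at their highest mean and the paternal Dlk1 at its lowest. The maternal Mirg had its highest mean at E17, at 8.61 CPM, and averaged 6.69 CPM at P1. The paternal Dio3 also had its highest mean at E17. The allele of origin was not measured.

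**Figure D2:**
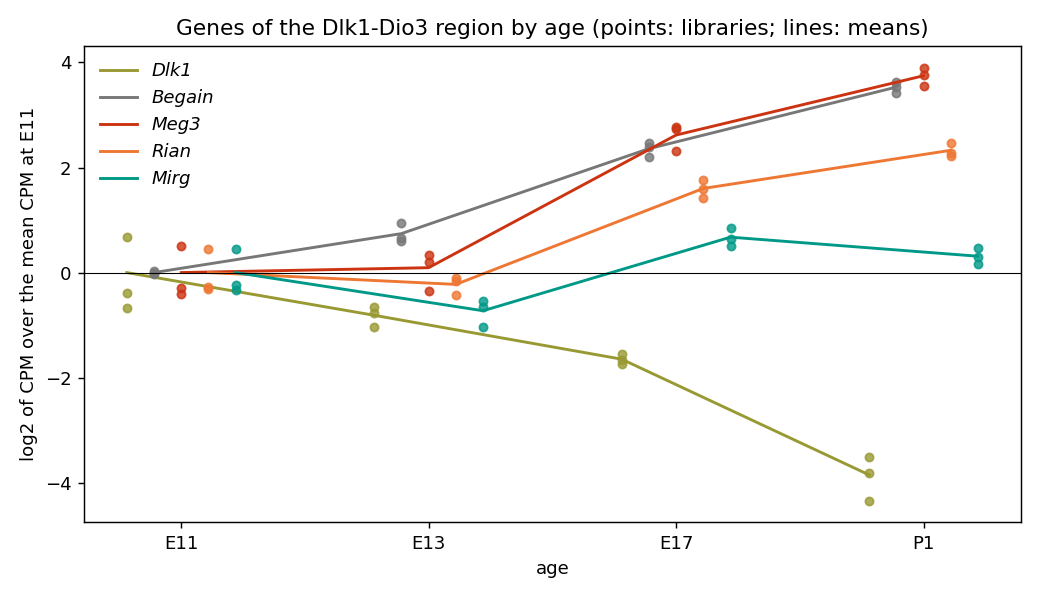
Genes of the Dlk1-Dio3 region at E11, E13, E17 and P1, as log2 of CPM over the gene's mean at E11; points are libraries and lines join the means of 3. Meg3, Rian and Begain are highest at P1, Mirg at E17, and Dlk1 is lowest at P1, where it averages 1.31 CPM.

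Neuron markers were higher at the later ages, as Meg3 and Rian were. The summed level of 10 neuron markers, none of them at 0, was 1264 to 1422 CPM at E11, 2756 to 3368 at E13, 10610 to 10890 at E17 and 10820 to 11140 at P1. The neuron sum had its first increase at E13, when neither Meg3 nor Rian changed past the threshold. It was nearly level between E17 and P1, when both RNAs rose, but its markers moved both ways. Rbfox3 (95.2 CPM at E17, 175.9 at P1), Syt1 (271.8, 441.0), Snap25, Stmn2, Nefl and Tubb3 had higher means at P1. Dcx (2575, 2218), Neurod6 (774.3, 494.1), Neurod2 and Map2 had lower ones. The part of neurons in the result was not tested. Of the 5 subunits and partners of Polycomb repressive complex 2, 4 fell and none rose at E17 against E13, with a median log2 fold change of -1.37 against -0.04 over all genes. Ezh2, its methyltransferase, averaged 118.3 CPM at E17 and 317.7 CPM at E13 (adjusted p = 7.44e-09), and Suz12, a core subunit, 96.8 and 261.8 CPM (adjusted p = 1.91e-09).

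Malat1, among the RNAs with a nuclear role, was abundant at every age and fell once (chr19:5795690-5802672, minus strand; ENSMUSG00000092341). Its level was 374.8, 300.2 and 421.9 CPM at E11 and 341.9, 417.1 and 391.4 CPM at E13. It was 293.3, 273.1 and 161.0 CPM at E17 and 185.5, 262.9 and 235.9 CPM at P1. The E17 libraries all lay below the E13 libraries, but the lowest of them, E17 C, was well apart from the other 2. Malat1 averaged 242.4 ± 71.2 CPM at E17 and 383.5 ± 38.2 CPM at E13 (SD, n = 3 each) and fell by 0.66 ± 0.22 on the log2 scale (adjusted p = 0.0186). The call was lost with no filter on low counts (adjusted p = 0.071) and without E13 B (-0.60, adjusted p = 0.0669), and the fall was -0.44 without E17 C (adjusted p = 0.0325). Neither E13 against E11 nor P1 against E17 passed (0.07 ± 0.22, adjusted p = 0.834, and -0.09 ± 0.22, adjusted p = 0.771).

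The 8 nuclear speckle proteins listed with Malat1 went the same way at this step: 7 fell and none rose at E17 against E13. Their median log2 fold change was -0.61, against -0.04 over all genes. Srsf1, a splicing activator, averaged 426.9 CPM at E17 and 837.5 CPM at E13 (adjusted p = 3.61e-10), and Srsf2, another of its family, 217.3 and 386.3 CPM (adjusted p = 1.34e-08). At P1 against E17, 3 fell and 1 rose.

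Neat1 was low, with 40 to 580 counts per library, and lowest at E17 (chr19:5824708-5845478, minus strand; ENSMUSG00000092274). It stood at 17.1, 6.99 and 6.82 CPM at E11 and at 4.37, 4.49 and 3.21 CPM at E13. At E17 it was 1.59, 1.43 and 1.34 CPM, and at P1 3.49, 3.995 and 3.10 CPM. No 2 successive ages overlapped. Neat1 fell by 1.36 ± 0.31 on the log2 scale at E13 against E11 (adjusted p = 0.00464) and by 1.48 ± 0.36 at E17 against E13 (adjusted p = 0.00245). It then rose by 1.29 ± 0.36 at P1 over E17 (adjusted p = 0.0101), where its libraries overlapped those of E13. The single library E11 A held more than the other E11 libraries, and without it the first fall was -0.78 (adjusted p = 0.00387). E11 A also had the highest erythroid sum, 16480 CPM, where E11 B and E11 C had 5742 and 9679 CPM. The part of blood cells in the level was not tested.

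Most of the paraspeckle proteins fell at both later steps, at the second of which Neat1 rose. Of the 9 listed, 8 fell and 1 rose at E17 against E13 (median log2 fold change -0.50, all genes -0.04), and 8 fell and none rose at P1 against E17 (median -0.24, all genes -0.00063). The count of falls at P1 was 5 without P1 B, 6 without P1 C and 6 without E17 A. Nono, which binds Neat1 directly, averaged 288.3 CPM at P1 and 402.5 CPM at E17 (adjusted p = 3.63e-05). Pspc1, the paraspeckle component that rose at E17, averaged 99.6 CPM at E17 and 81.0 CPM at E13 (adjusted p = 0.00027), a rise of 0.30 on the log2 scale that was 0.11 and not past the threshold (adjusted p = 0.0842) with scaling by library size alone. Tardbp, an RNA-binding protein of the same bodies, averaged 326.6 CPM at E17 and 543.7 CPM at E13.

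Miat (Gomafu) went up, down and up again (chr5:112213228-112229395, minus strand; ENSMUSG00000097767). It stood at 500.7, 408.9 and 517.6 CPM at E11 and at 536.3, 882.3 and 661.0 CPM at E13. At E17 it was 486.7, 446.9 and 360.4 CPM, and at P1 684.7, 833.4 and 771.1 CPM. Neighbouring ages did not overlap, although E13 A lay only a little above E11 C. Miat rose by 0.82 ± 0.17 on the log2 scale at P1 over E17 (adjusted p = 0.00219) and fell by 0.68 ± 0.17 at E17 against E13 (adjusted p = 0.00369). The rise at E13 over E11 was 0.54 ± 0.17 (adjusted p = 0.0265), and this call was lost without E11 B (0.44, adjusted p = 0.0968), without E13 B (0.33, adjusted p = 0.114) and with E11 C and E13 C and E17 A all left out (0.64, adjusted p = 0.0607). It was also lost with no filter on low counts (adjusted p = 0.101) and in a fit of those ages alone (adjusted p = 0.0612). P1 and E13 did not differ past the threshold (0.14 ± 0.17, adjusted p = 0.471).

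Of 3 splicing factors that bind Miat, Qki was not matched to an identifier. Celf3, a neuronal splicing factor, averaged 309.3 CPM at E17 and 146.0 CPM at E13 (log2 fold change 1.08 ± 0.14, adjusted p = 1.86e-05). Sf1, which reads the branch point, averaged 224.7 CPM at E17 and 364.3 CPM at E13 (log2 fold change -0.70 ± 0.05, adjusted p = 5.64e-08). Neither passed at P1 against E17, the step at which Miat rose.

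**Figure D3:**
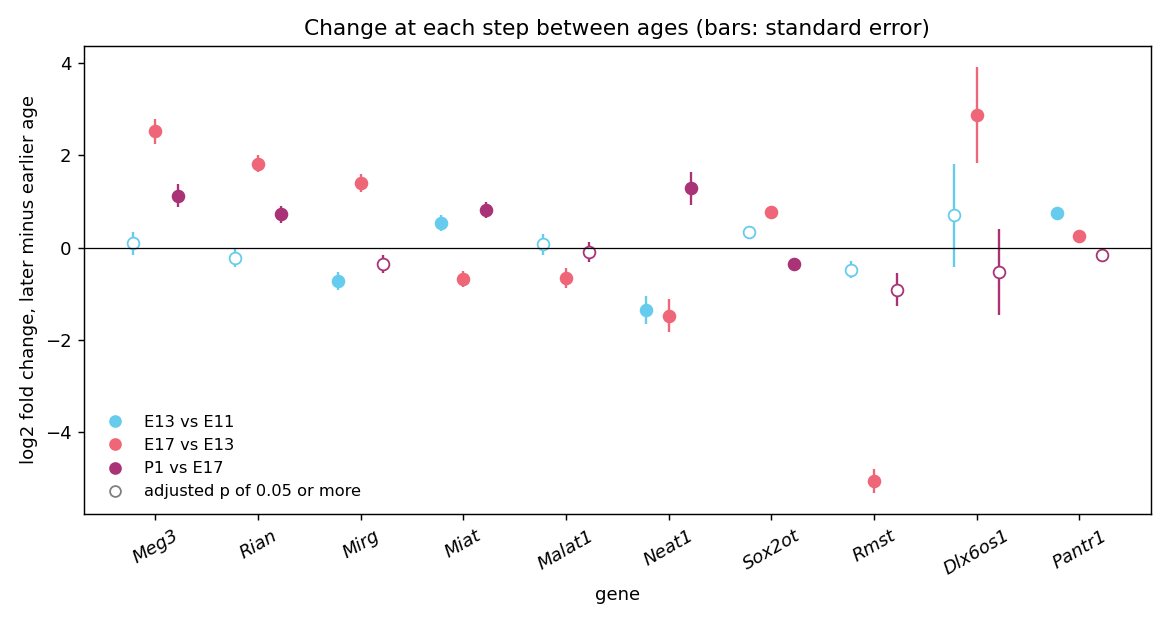
Log2 fold change of each RNA at the 3 steps between successive ages, with the standard error; filled points have an adjusted p under 0.05 in edgeR. All 10 points for E17 over E13 are filled, from -5.06 for Rmst to 2.88 for Dlx6os1.

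Sox2ot rose at the step to E17, while the gene in its intron fell. Sox2ot spans 578350 bases (chr3:34104270-34682619, plus strand; ENSMUSG00000105265) and contains Sox2 on the same strand without sharing an exon. Its level was 15.2, 15.4 and 22.0 CPM at E11, 18.97, 23.6 and 24.0 CPM at E13, 39.2, 38.0 and 37.5 CPM at E17, and 31.7, 30.3 and 27.7 CPM at P1. The E17 libraries lay closest together, above all others. Sox2ot rose by 0.78 ± 0.13 on the log2 scale at E17 over E13 (adjusted p = 0.000113). Its change at E13 over E11 was 0.34 ± 0.13 (adjusted p = 0.057), which passed without E11 C (0.54, adjusted p = 0.00158), without E13 A (0.44, adjusted p = 0.0199), in DESeq2 (adjusted p = 0.0414) and in limma-voom (adjusted p = 0.0471). The fall at P1 against E17, by 0.35 ± 0.13 (adjusted p = 0.0358), was lost on leaving out any one of the 6 libraries of these ages (adjusted p = 0.0605 to 0.151), with upper-quartile factors (adjusted p = 0.0531) and with no filter on low counts (adjusted p = 0.0534).

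Sox2, the progenitor transcription factor, stood at 50.6, 42.5 and 49.8 CPM at E17 and at 139.2, 125.7 and 149.2 CPM at E13, and fell by 1.53 ± 0.08 on the log2 scale (adjusted p = 1.18e-09). Host and nested gene thus moved in opposite directions at the step to E17, each with no overlap between the ages. At P1 against E17 Sox2 fell as Sox2ot did, by 0.24 on the log2 scale (adjusted p = 0.0271), a call lost in 5 of 22 alternatives. At E13 against E11 Sox2 fell by 0.24 (adjusted p = 0.0286), a call lost in 4 of 22. The summed level of 9 radial glia markers, a list that holds Sox2, was 1221 to 1414 CPM at E17 and 2739 to 2811 CPM at E13. Of these markers, Fabp7 averaged 457.2 CPM at E17 and 288.8 at E13, and Slc1a3 224.1 and 111.0 CPM. The others had lower means at E17. The summed level of 10 neuron markers moved upward, as given above. The part of either cell type in the result was not tested.

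Rmst had the largest change of the 10 (chr10:92071037-92165170, minus strand; ENSMUSG00000112117). It stood at 59.8, 62.7 and 51.8 CPM at E11 and at 52.1, 32.2 and 41.0 CPM at E13. At E17 it was 0.871, 1.86 and 1.06 CPM, and at P1 0.719, 0.825 and 0.454 CPM. The late libraries held only 19 to 52 counts each and the early ones 1147 to 2127. Rmst fell by 5.06 ± 0.26 on the log2 scale at E17 against E13, 33.4-fold (adjusted p = 3.71e-09), and 1.31% of all tested genes had a larger absolute change. The changes at E13 against E11 and at P1 against E17 were -0.48 ± 0.19 (adjusted p = 0.0622) and -0.91 ± 0.36 (adjusted p = 0.0544). The first of them passed without E13 A (-0.67, adjusted p = 0.0156) and without E17 B (-0.47, adjusted p = 0.0367), as well as with upper-quartile factors, DESeq2 and limma-voom (adjusted p = 0.0443, 0.0313 and 0.0117). The second passed without E13 A (-0.91, adjusted p = 0.0321), without E13 B (-0.91, adjusted p = 0.0341) and without E17 A (-1.06, adjusted p = 0.0413), and in DESeq2 (adjusted p = 0.0043) and in a fit of those ages alone (adjusted p = 0.0392).

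Nedd1, a centrosomal protein gene near Rmst, fell in the same direction. It averaged 80.7, 66.6, 12.8 and 4.99 CPM from E11 to P1, and its log2 fold change was -2.38 ± 0.11 at E17 over E13 (adjusted p = 2.04e-10) and -1.36 ± 0.12 at P1 over E17 (adjusted p = 2.58e-06). Summed markers of dividing cells and of neighbouring tissues were lower after the same step. The sum of 5 markers of dividing cells was 267.3 to 370 CPM at E17 and 1968 to 2186 CPM at E13. That of 5 markers of diencephalon and midbrain was 3.67 to 3.92 CPM at E17 and 19.7 to 22.0 CPM at E13. Rmst is known to be made in that region. At E13 only 2 of these markers averaged over 1 CPM, Tcf7l2 at 11.8 and Lmx1a at 8.75 CPM, and 1 was at 0. En1, Pax2 and Gbx2 were too low to test. The sum of 5 choroid plexus markers was 0.516 to 8.45 CPM at E17 and 38.4 to 387 CPM at E13. Their part in the fall of Rmst was not tested.

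Of the listed partners of Rmst and Sox2ot, the RNA-binding protein Hnrnpa2b1, which binds RMST in human cells, averaged 1196 CPM at E17 and 1938 CPM at E13 (log2 fold change -0.70, adjusted p = 5.3e-08). Neurog2, a neurogenic factor counted among the targets, averaged 35.9 CPM at E17 and 249.4 CPM at E13 (log2 fold change -2.79, adjusted p = 1.61e-06). In all, 3 of the 5 fell and 1 rose at this step, and none rose without E13 A or without E13 B.

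Dlx6os1 differed more between animals of the same age than the other 9 RNAs at E11 and E13, but not at E17 or P1 (chr6:6820189-6871592, minus strand; ENSMUSG00000090063). It stood at 1.12, 0.0884 and 12.3 CPM at E11, the second of which is 3 counts, and at 2.94, 3.20 and 15.9 CPM at E13. At E17 it was 72.0, 37.5 and 50.4 CPM, and at P1 42.9, 34.1 and 34.2 CPM. The late libraries all lay above the early ones, while the E11 libraries ranged over 139-fold and the P1 libraries over 1.26-fold. Dlx6os1 averaged 53.3 ± 17.5 CPM at E17 and 7.33 ± 7.39 CPM at E13 (SD, n = 3 each). The log2 fold change was 2.88 ± 1.04 (adjusted p = 0.0328). The call was lost with no filter on low counts (adjusted p = 0.0531) and without E13 A (adjusted p = 0.0948), E13 B (0.0887), E17 A (0.0786) or E17 C (0.062), and the value was 4.12 without E13 C (adjusted p = 0.0167). At P1 over E17 the change was -0.52 ± 0.93 (adjusted p = 0.676). At E13 over E11 it was 0.71 ± 1.12 (adjusted p = 0.658), with 3.57 without E11 C (adjusted p = 0.0502) and -0.53 without E13 C (adjusted p = 0.777).

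The sum of GABAergic markers ranked the libraries of an age as Dlx6os1 did at E11, E13 and E17 but not at P1. The summed level of 9 such markers was 7.09, 4.01 and 46.0 CPM at E11 and 21.4, 28.6 and 64.2 CPM at E13. It was 446.5, 371.3 and 421.1 CPM at E17 and 420.6, 411.7 and 440.1 CPM at P1. The C libraries of E11 and E13 were the highest of their ages in both measures. The list includes Dlx5 and Dlx6, the neighbours of Dlx6os1. Its members did not all differ alike between the E11 libraries. Dlx1 ranged from 0.118 to 16.0 CPM at E11, Dlx2 from 0.56 to 15.2, Gad2 from 0.147 to 6.47 and Gad1 from 0.147 to 3.03. Lhx6 ranged only from 1.75 to 2.83 CPM, and Npy and Sst were at most 0.0884 and 0.0637 CPM. Of the 9 markers, 1 was at 0 in E11 B and 1 in E13 A. E17 A, the highest in Dlx6os1, also had the highest sum of 7 striatal markers (95.7 CPM, against 51.4 in E17 B and 70.5 in E17 C). This did not hold at the other ages. E11 C and E13 C, the highest of their ages in Dlx6os1, had the lowest striatal sums, at 6.63 and 15.1 CPM. At P1 the striatal sum was highest in P1 C (74.4 CPM) and Dlx6os1 in P1 A. Whether the dissections differed was not tested. With E11 C and E13 C and E17 A all left out, a choice made after the data were seen, Dlx6os1 changed by 3.84 on the log2 scale at E17 over E13 (adjusted p = 3.77e-05) and by 2.34 at E13 over E11 (adjusted p = 0.0203).

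**Figure D4:**
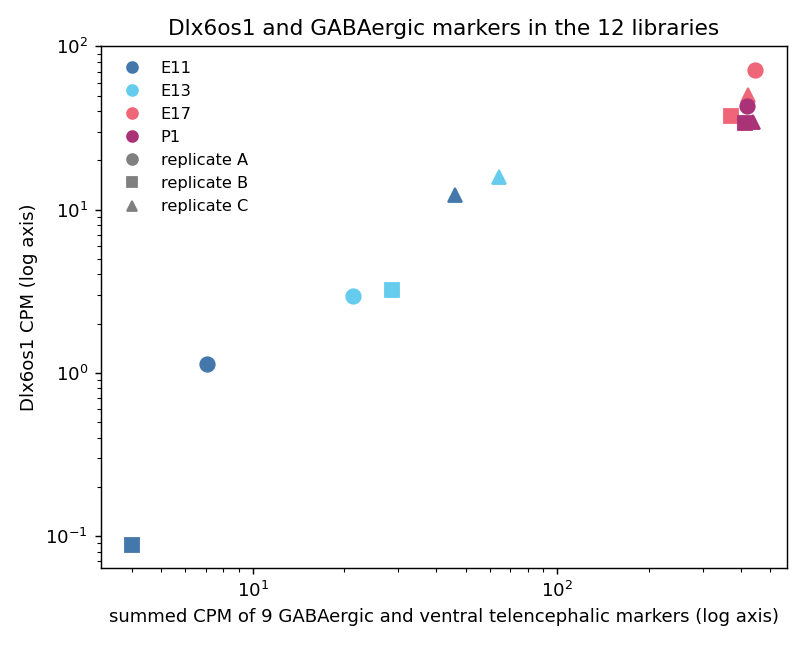
Dlx6os1 in CPM against the summed CPM of 9 GABAergic and ventral telencephalic markers in the 12 libraries, both on log axes; colours mark ages and symbols replicates. The E11 and E13 libraries spread over both axes, E11 C and E13 C lie nearest the late libraries, and all E17 and P1 libraries lie above 34 CPM of Dlx6os1.

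Of the 8 genes of the Dlx family and GABA synthesis listed with Dlx6os1, 7 rose and none fell at E17 over E13, with a median log2 fold change of 3.12 against -0.04 over all genes; scaled by library size alone, 6 rose and 1 fell. Without E13 A 5 of the 8 rose, and without E13 B 5 rose and 1 fell. Lhx6, a transcription factor of migrating interneurons, averaged 94.7 CPM at E17 and 6.66 CPM at E13 (log2 fold change 3.83 ± 0.13, adjusted p = 5.09e-11). Gad1, which makes GABA, averaged 55.4 and 4.30 CPM (log2 fold change 3.70 ± 0.53, adjusted p = 0.000138). Dlx6, which Dlx6os1 overlaps on the opposite strand without a shared exon, averaged 3.57 and 0.315 CPM (log2 fold change 3.56 ± 0.92, adjusted p = 0.0053; 5.94 without E13 C and 2.93 without E13 A). Dlx5, the neighbour of Dlx6, averaged 11.1 and 1.97 CPM (log2 fold change 2.51 ± 0.69, adjusted p = 0.00791; 3.18 without E13 C). At P1 against E17 none of the 8 passed in edgeR, and 3 fell where the fit held only the libraries of these ages.

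Pantr1 had its main rise at the first step (chr1:42590782-42694842, minus strand; ENSMUSG00000060424). It stood at 42.7, 57.5 and 56.9 CPM at E11, 79.3, 87.7 and 96.5 CPM at E13, 109.7, 97.3 and 109.1 CPM at E17, and 91.3, 86.7 and 103.4 CPM at P1. The E13 libraries all exceeded the E11 libraries, and from E13 on the ages lay within a narrow band. Pantr1 rose by 0.75 ± 0.11 on the log2 scale at E13 over E11 (adjusted p = 0.000267). The further rise of 0.26 ± 0.11 at E17 over E13 (adjusted p = 0.0492) was lost in 10 of 22 alternatives, among them upper-quartile factors (0.18, adjusted p = 0.151) and scaling by library size alone (0.08, adjusted p = 0.533). It was also lost without E13 A (0.19, adjusted p = 0.176), E13 B (0.26, 0.101), E17 A (0.25, 0.108), E17 C (0.24, 0.123) or P1 A (0.28, 0.0522), and with E11 C and E13 C and E17 A all left out (0.31, 0.0648). With no filter on low counts and with a filter at 1 CPM the adjusted p was 0.089 and 0.0595.

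Pou3f3, the POU class III factor next to Pantr1, averaged 267.4, 374.1, 553.1 and 428.9 CPM from E11 to P1. It rose by 0.48 ± 0.07 on the log2 scale at E13 over E11 (adjusted p = 0.000194) and by 0.56 ± 0.07 at E17 over E13 (adjusted p = 1e-05), and fell by 0.37 ± 0.07 at P1 against E17 (adjusted p = 0.00108). Of the 4 genes of the class, 3 rose and none fell at both earlier steps, and 1 rose and 3 fell at P1 against E17. Without E13 B 2 rose at the first step, and without E17 A, P1 B or P1 C 2 fell at the last. Pou3f1, a transcription factor of cortical projection neurons, averaged 63.2 CPM at E17 and 6.19 CPM at E13 (adjusted p = 3.81e-10) and 110.3 CPM at P1. Pou3f2 (Brn2) averaged 215.5 CPM at E17 and 49.6 CPM at E13 (adjusted p = 5.81e-06), and 112.9 CPM at P1. Pantr2, another RNA of the Pantr1 region, averaged 13.7 CPM at E13 and 6.44 CPM at E11 (log2 fold change 1.09, adjusted p = 0.000302). Unlike Pantr1, it had lower means at E17 and P1 than at E11, at 4.44 and 4.27 CPM.

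Levels can be compared between genes only per length, here as CPM per kilobase of exons in GENCODE M21. At E11 Malat1 and Miat led, at 52.4 ± 8.79 and 51.2 ± 6.29 CPM per kilobase, with ranges that overlapped. Pantr1 came next at 11.8 ± 1.88, above Rmst at 7.83 ± 0.76, Rian at 5.62 ± 1.76 and Meg3 at 4.35 ± 1.62, and the last 3 overlapped from one to the next. Sox2ot, Dlx6os1, Mirg and Neat1 were at 1.51, 0.872, 0.74 and 0.496. At P1 the order was Miat at 82.1 ± 8.04, Meg3 at 58.4 ± 7.13, Malat1 at 32.7 ± 5.63, Rian at 28.2 ± 2.64 and Pantr1 at 21.04 ± 1.93, all SD with n = 3. Of these neighbours only Malat1 and Rian overlapped. Dlx6os1, Sox2ot, Mirg, Neat1 and Rmst followed, at 7.17, 2.58, 0.918, 0.17 and 0.0897 CPM per kilobase. Meg3 thus stood 6 of 10 in order at E11 and 2 of 10 at P1, and Rmst was 4 of 10 at E11 and last at P1. How completely oligo(dT) captured each RNA was not measured.

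Genes annotated as microRNA, small nucleolar RNA or miscellaneous RNA lie inside the exons of several of these RNAs. They were counted under their own identifiers. Of the genes that overlap exons of the 10, 41 lie on the same strand and 6 on the opposite one. The 6 opposite genes had 1 to 228 counts over all 12 libraries, at most 0.125% of the counts of the RNA they overlap, although their exons cover up to 26.3% of it. Of the 41 on the same strand 24 had at least 100 counts. They are described as counts under those identifiers, not as levels of mature small RNAs. Gm27998, Gm27357, Gm27694, Gm27403 and Gm27544, given below, are of the miscellaneous type. Whether their reads come from the host RNA itself was not tested. How reads lying in both genes were assigned is not given in the sources used here.

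The share of the host's count held by such genes differed from gene to gene, also within 1 host. Gm27998, in Miat, held 5.13, 5.12, 4.75 and 5.03% of the Miat count at E11, E13, E17 and P1, and Gm27694, in Malat1, 2.14, 2.47, 2.42 and 2.62%. Gm27357, also in Miat, held 0.223, 0.21, 0.31 and 0.35%, with every E17 and P1 library (0.267 to 0.408%) above every E11 and E13 library (0.177 to 0.259%). Gm24895, a small nucleolar RNA gene in Rian, held 1.98, 1.61, 1.29 and 1.18%, and Gm27403, in Sox2ot, 2.07, 4.11, 1.37 and 0.653%. Mir770, further along Meg3, had 0, 6 and 3 counts at E11 and 4, 8 and 9 at E13, then 101, 106 and 101 at E17 and 243, 321 and 379 at P1. As a share of the Meg3 count this was 0.604 to 0.727% at E17 and 0.704 to 0.772% at P1, but 0.171 to 0.309% at E13 and at most 0.297% at E11, where the 0 counts in E11 A allow up to 0.138%. Every late library lay above every early one in this share. Mir1906-1, nearer the start of Meg3, held 1.43, 1.89, 1.22 and 1.10% at the 4 ages. Gm27544, in Rmst, held 34.3 ± 0.73% of the Rmst count at E11 and 31.2 ± 4.40% at E13, 16.0 ± 2.61% at E17 and 4.36 ± 4.72% at P1 (SD, n = 3 each). The late shares of Gm27544 rest on 0 to 9 of 19 to 52 counts. These shares were described only and were not tested.

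**Figure D5:**
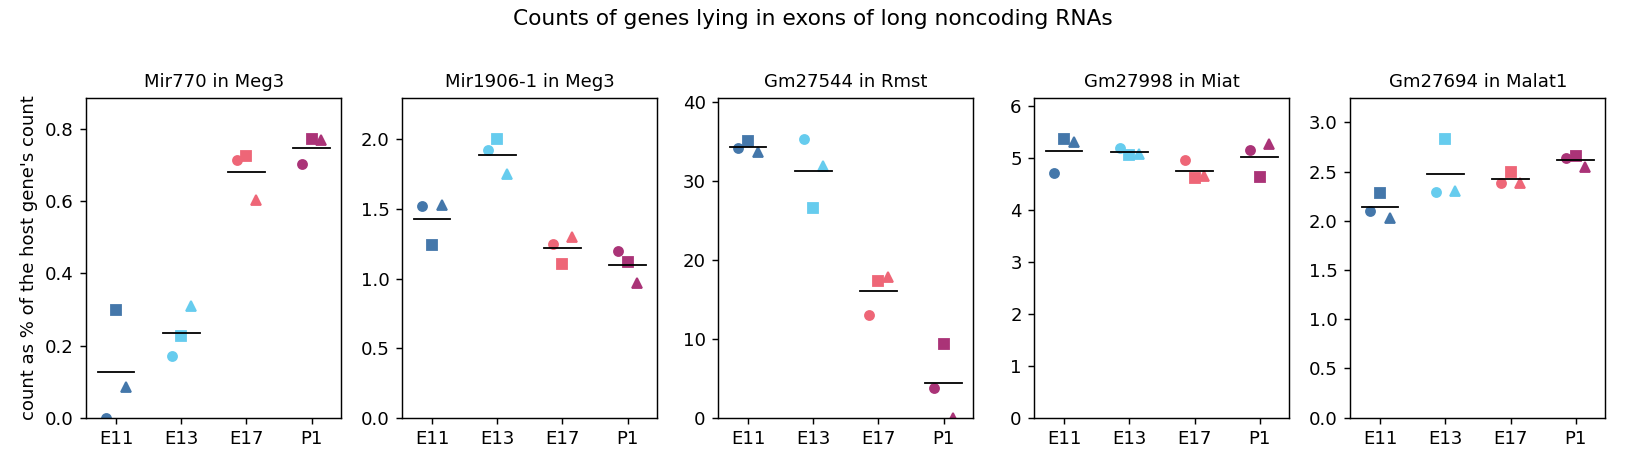
Counts of 5 genes that lie in exons of Meg3, Rmst, Miat or Malat1, as a percent of the count of the host gene, by age and library; bars are means of 3. Mir770 takes at least 0.604% of the Meg3 count in each E17 and P1 library and at most 0.309% in each E11 and E13 library, Gm27544 is lower in Rmst at E17 and P1, and the means of Gm27998 in Miat and Gm27694 in Malat1 lie at 4.75 to 5.13% and 2.14 to 2.62%.

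Other named long noncoding RNAs, a list of 27 of which 25 were tested, changed in both directions. At E17 against E13, 9 rose and 11 fell (9 and 13 when scaled by library size alone), with a median log2 fold change of -0.32 against -0.04 over all genes. Dlx1as, antisense to Dlx1, averaged 26.5 CPM at E17 and 3.01 CPM at E13 (adjusted p = 0.00155), and Snhg11, a neuronal host gene of small nucleolar RNAs, 44.5 and 5.93 CPM (adjusted p = 7.93e-06). H19, an imprinted growth-related RNA, averaged 35.4 CPM at E17 and 246.9 CPM at E13 (adjusted p = 7.73e-05). At E13 against E11, 5 rose and 3 fell, led by Mir124a-1hg, a host gene of the neuronal miR-124, at 42.4 CPM at E13 and 11.3 CPM at E11 (adjusted p = 0.00173). At P1 against E17, 6 rose and 9 fell. Of 12 protein-coding genes listed as neighbours of the 10, 11 were tested, and 4 rose and 5 fell at E17 against E13.

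The genes whose log2 CPM most resembled each RNA were sought among 10256 genes with a mean of at least 10 CPM, as Pearson's r over the 12 libraries, which fall into 4 ages and so share any change with age. For Meg3 they were Adam23, Speg and Fam189a1 (r = 0.997, 0.995 and 0.995), and for Rian Sgsm1, Slc12a5 and Adam23 (r = 0.995, 0.993 and 0.993). For Rmst they were Alg8, Tedc1 and Emx2 (r = 0.997, 0.995 and 0.995). For Dlx6os1 they were Dlx1, Gad2 and Dlx2 (r = 0.991, 0.977 and 0.971), 3 genes of the GABAergic lineage. Miat was most like Clasrp and Leng8 (r = 0.979 and 0.975), Malat1 like Cspp1 (0.977), Sox2ot like Lipg (0.981), Pantr1 like Ddah1 (0.972), Mirg like Ptch1 (0.946) and Neat1 like Atad3a (0.94). Among the 10 themselves, Meg3 and Rian were the most alike (r = 0.994), and Meg3 and Rmst the most opposed (r = -0.976).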

How the data were processed

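Poly(A)+ RNA of 12 cortices, 3 at each of 4 ages, was measured. The authors deposited whole-number read counts per Ensembl gene for each library, not normalized. Tools named in the submitters' processing notes are STAR 2.5.2b, HTSeq 0.5.3, DESeq2 1.8.1, SAMtools and bcl2fastq 2.18. What each did, the genome build, the annotation, the strand setting and the handling of reads that overlap more than 1 gene: not given in the sources used here. Total counts were 28173745 to 45858712 per library, and intervals from counts cover counting error only.

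Counts were filtered with filterByExpr (minimum count 10), scaled with TMM factors (0.92 to 1.094) and fitted in edgeR 4.0.16 (R 4.3.3, limma 3.58.1) with 1 coefficient per age over all 12 libraries. The two-sided quasi-likelihood test was used, with Benjamini-Hochberg adjustment over 17847 genes and a threshold of 0.05. The standard error is the absolute log2 fold change divided by the square root of F. An upper limit for 0 counts is 3 counts of the total. The fit was tested on simulated data. Alternatives were RLE, upper-quartile and library-size scaling, other filters, only the ages compared, the replicate letter as a block, DESeq2 1.42.0, limma-voom and each library left out. Leaving out E11 C and E13 C and E17 A together was chosen after seeing the data.

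Members and lists were chosen with earlier results of these data known. From each list up to 2 of the largest rises and falls past the threshold with at least 1 CPM at an age were eligible to be named, and those whose call rested on 1 library were left out or given with that. Genes outside that rule (Sox2, Nedd1, Pou3f3 and Hnrnpa2b1) were named after their values were seen. Like genes are the 3 highest Pearson correlations of log2 CPM (prior count 2) among genes of at least 10 CPM, without Gm and Rik symbols. Sequences are from RefSeq (GRCm38.p6) and gene models from GENCODE M21. Promoter windows of Neat1, Sox2ot, Rmst and Pantr1 were not used here.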

Additional observations from a re-analysis of the deposited data

How the results depend on the processing

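The number of the 10 RNAs called was 3 to 6 at E13 against E11, 7 to 10 at E17 against E13, 4 to 6 at P1 against E17 and 7 to 10 at P1 against E11 when libraries were left out in turn. It was 8 to 9 at E17 against E11, 6 to 7 at P1 against E13 and 9 to 10 across the 4 ages. Over all alternatives the ranges were wider at P1 against E17 (4 to 7), E17 against E11 (7 to 9) and P1 against E13 (5 to 7). With a replicate block on the letters the counts were 4, 10, 5, 9, 9, 7 and 10. The letters gave no clear pairing of the animals. Of 18 same-letter correlations 4 exceeded 0.1 (range -0.343 to 0.33, the highest for E11 C with E13 C), and 9 of 36 matches were best with the own letter. With 3 libraries per age this comparison cannot decide whether a letter is shared between ages. Signs turned for changes that did not pass: with E11 C and E13 C and E17 A all left out, Rian was 0.03 at E13 over E11 and Malat1 0.07 at P1 over E17; with library size alone, Miat was -0.06 and Pantr1 -0.1 at P1 over E13. Leaving out single libraries gave -0.07 to 0.44 for Meg3, -0.36 to 0.06 for Rian, -0.06 to 0.18 for Malat1 and -0.53 to 3.57 for Dlx6os1 at E13 over E11, -0.31 to 0.1 for Malat1 at P1 over E17 and -0.02 to 0.35 for Miat at P1 over E13. The cause was not tested. Library size alone shifted the median of all genes by -0.184 at E17 over E13, where 39.8% of calls were rises against 49.8% with TMM. Rmst at E17 and P1 and Neat1 at E17 rest on few counts.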
